A study of Mus musculus with 4 samples.

Results

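Circadian clock output genes were examined in mouse heart grafts as 9 named genes: Dbp, Tef, Per1, Per2, Per3, Nr1d1, Nr1d2, Ciart and Arntl. They were taken from the gene list by symbol, and all 9 were found among 30905 genes. The genes were chosen by their measured levels in these cells, which differed between libraries, so every difference between libraries below is a description and carries no test.

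The study transplanted hearts of male BALB/c (strain label Balb/C, allogeneic) or C57BL/6J (syngeneic) mice, aged 8 to 10 weeks, into C57BL/6J recipients, and took the grafts on day 5. The grafts, 2 of each kind, were digested to single cells and sequenced by the 10x Genomics 3′ method, which counts unique molecular identifiers (UMIs). The counts came as 1 merged matrix of 53824 cells in which a suffix on the barcode, 1 to 4, marks the library. No source used here pairs a suffix with a graft, so allogeneic and syngeneic grafts were not compared and each library is a single graft of unknown kind without a replicate. A graft holds cells of the donor heart and infiltrating cells of the recipient. The hour at which each graft was taken is not given in the sources used here, and graft, hour and preparation cannot be told apart between libraries.

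The mammalian circadian clock is a feedback loop that runs in nearly every cell. Arntl (also called BMAL1) pairs with CLOCK and drives genes that carry E-box elements, among them the period genes, the Rev-erb genes Nr1d1 and Nr1d2, and Dbp. PER and CRY proteins then inhibit CLOCK-ARNTL, while the Rev-erb proteins repress Arntl, so that Arntl transcripts peak when the transcripts of most of the other genes are low. DBP, TEF and the related HLF are PAR bZIP factors that bind D-box elements and carry the rhythm on to genes of metabolism. In the heart the clock is known for its part in substrate use and in the daily course of heart rate.

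By the symbols' Ensembl identifiers in GENCODE M21 (GRCm38), Dbp (ENSMUSG00000059824) lies at chr7:45705088-45710203, Tef (ENSMUSG00000022389) at chr15:81802421-81826863 and Arntl (ENSMUSG00000055116) at chr7:113207465-113314126, each on the plus strand. Per1 (ENSMUSG00000020893) lies at chr11:69095217-69109960 on the plus strand, and Per2 (ENSMUSG00000055866) at chr1:91415982-91459324 and Per3 (ENSMUSG00000028957) at chr4:151003652-151044665 on the minus strand. Nr1d1 (ENSMUSG00000020889) at chr11:98767932-98775333, Nr1d2 (ENSMUSG00000021775) at chr14:18204054-18239127 and Ciart (ENSMUSG00000038550) at chr3:95878503-95882251 lie on the minus strand. Counts cover whole genes.

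The DNA before the start sites was searched for the elements through which the loop is known to act. Of the 9 genes, 8 were in the RefSeq promoter table (GRCm38.p6), with 11 start sites, and Per2 was not. The 250 bases before each start were searched on both strands for the E-box CACGTG, the E-box variant CACGTT, the D-box TTATGTAA or TTACGTAA, the cyclic AMP element TGACGTCA and the element bound by the ROR and Rev-erb receptors. The E-box was found before Tef, Per1 and Ciart and the D-box before Per3. A window of each of these 4 genes is shown because it holds an E-box or a D-box. The element bound by the ROR and Rev-erb receptors was found before none of the 8 genes. In the 4 windows shown, each match is in capitals and the last base lies next to the start. None of the 5 motifs overlaps another in them.
Ciart, chr3:95882229-95882478, minus strand: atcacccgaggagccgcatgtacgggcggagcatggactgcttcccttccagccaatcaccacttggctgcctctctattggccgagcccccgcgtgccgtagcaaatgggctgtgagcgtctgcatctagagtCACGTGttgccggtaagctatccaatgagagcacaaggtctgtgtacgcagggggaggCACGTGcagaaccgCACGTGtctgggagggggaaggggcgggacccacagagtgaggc
Per3, chr4:151044666-151044915, minus strand: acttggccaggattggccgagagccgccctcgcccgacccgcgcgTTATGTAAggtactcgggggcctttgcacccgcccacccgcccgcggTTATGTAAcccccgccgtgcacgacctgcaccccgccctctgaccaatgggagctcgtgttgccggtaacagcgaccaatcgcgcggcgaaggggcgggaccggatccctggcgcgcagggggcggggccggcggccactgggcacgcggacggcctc
Per1, first start, chr11:69098699-69098948, plus strand: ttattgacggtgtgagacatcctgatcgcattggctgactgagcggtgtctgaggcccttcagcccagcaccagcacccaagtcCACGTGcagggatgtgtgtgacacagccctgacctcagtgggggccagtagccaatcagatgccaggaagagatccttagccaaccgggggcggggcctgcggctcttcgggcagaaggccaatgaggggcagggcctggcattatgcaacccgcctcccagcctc
Tef, second start, chr15:81811164-81811413, plus strand: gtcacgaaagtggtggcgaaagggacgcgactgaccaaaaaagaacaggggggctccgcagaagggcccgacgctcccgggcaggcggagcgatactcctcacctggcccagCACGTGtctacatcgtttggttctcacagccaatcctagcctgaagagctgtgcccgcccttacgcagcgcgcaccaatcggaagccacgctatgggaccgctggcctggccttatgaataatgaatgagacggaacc

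Ciart, which encodes a repressor of CLOCK-ARNTL, held 3 E-boxes, beginning 116, 58 and 44 bases before its start. Per3 held 2 D-boxes, beginning 205 and 158 bases before the start. Per1 and both starts of Tef held 1 E-box each, and Nr1d1 held 1 E-box variant, beginning 28 bases before its start. An E-box was found in 6.02% of all 32851 promoter windows of this length, the E-box variant in 3.85%, the D-box in 0.931%, the cyclic AMP element in 1.55% and the ROR element in 0.332%. Dbp, Nr1d2 and Arntl held none of the 5 in these windows.

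Cells were sorted into classes by clustering, without the 9 genes and the other gene lists used here, and by fixed marker genes. Of 42395 cells that passed all filters, 33594 fell into 10 named classes, and a class was used in a library where it had at least 100 cells. Levels are given as CPM, the UMIs of a gene per 1000000 UMIs of all non-mitochondrial genes in a class of a library, with exact Poisson 95% intervals that cover counting error only. Cdh5 (VE-cadherin), a marker of endothelium, lay between 787 and 1432 CPM in endothelial-like cells and between 3.3 and 31 CPM in macrophage-like cells. The pericyte-like cells also held Cdh5 at 718 to 886 CPM, so this class carried endothelial transcripts in all 3 libraries. Libraries held 96020294 to 166079145 UMIs, and 308 barcode sequences, 0.576% of all, occurred in more than 1 library. Some classes were split by library. Endothelial-like cells of libraries 1 and 3 shared 1 cluster (3570 and 3117 cells), whereas those of library 2 and of library 4 formed clusters of their own. Pericyte-like, smooth muscle-like and T/NK-like cells each came from a single cluster that held at least 100 cells of 3 or 4 libraries. B-like, cardiomyocyte-like and erythroid-like cells also came from a single cluster each, with at least 100 cells in fewer libraries.

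Endothelial-like cells, the largest class of heart-resident cells, were examined first. Library 1 held higher levels of Dbp, Tef, the 3 period genes, both Rev-erb genes and Ciart than each of the other libraries, and a lower level of Arntl. Levels are compared within a gene and not between genes.

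**Figure D1:**
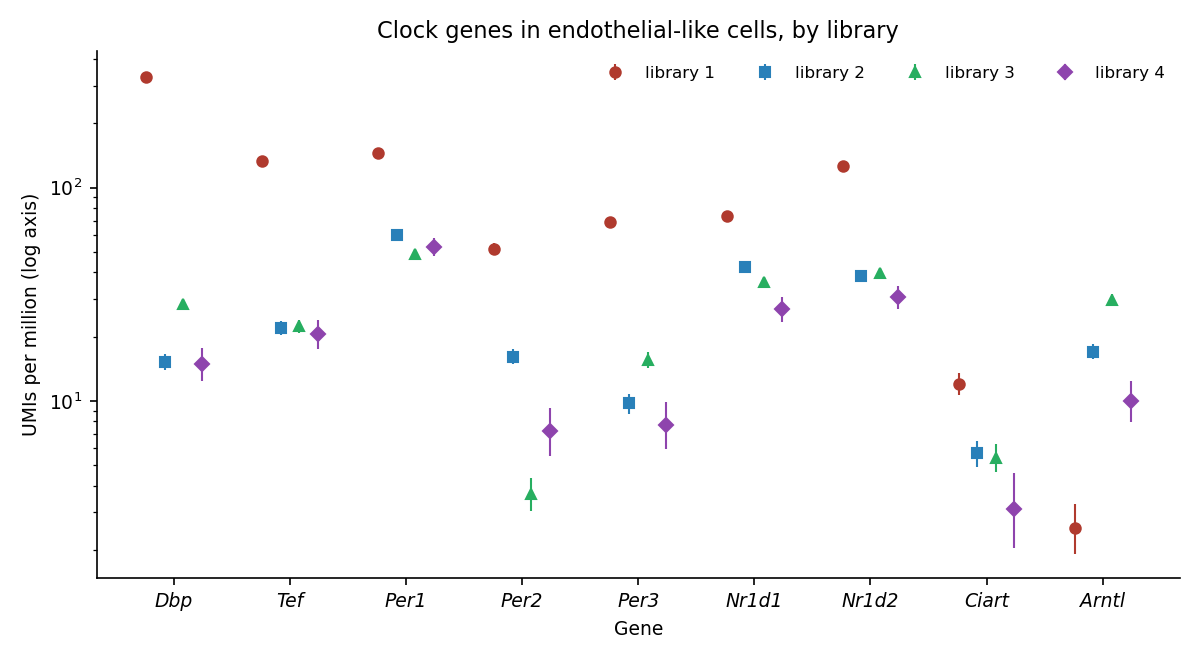
Levels of the 9 clock genes in endothelial-like cells in CPM on a log axis, with 1 point per library and bars for the exact Poisson 95% interval. Library 1 is the highest for 8 genes, with Dbp at 330 CPM against 14.9 to 28.3 CPM elsewhere, and the lowest for Arntl.

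Among the output factors, Dbp stood at 330 CPM (323 to 338, 3596 cells) in library 1. It stood at 15.2 CPM (14 to 16.6, 4302 cells) in library 2, at 28.3 CPM (26.6 to 30.1, 3285 cells) in library 3 and at 14.9 CPM (12.4 to 17.8, 638 cells) in library 4. Libraries 2 and 4 could not be told apart at this depth, library 3 lay above both, and library 1 lay more than 10-fold above library 3. Tef, the second PAR bZIP factor, was at 133 CPM in library 1 and at 22, 22.4 and 20.6 CPM in libraries 2, 3 and 4, whose intervals overlapped.

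The period genes, which encode the negative limb, differed in how the other 3 libraries were ordered. Per2 was at 51.7 CPM (48.7 to 54.7) in library 1, 16.1 CPM (14.8 to 17.5) in library 2, 3.66 CPM (3.05 to 4.36) in library 3 and 7.21 CPM (5.5 to 9.28) in library 4. All 4 intervals were separate, with library 3 the lowest. Per3 was at 69.2 CPM in library 1 and at 9.73, 15.5 and 7.69 CPM in libraries 2, 3 and 4, so that library 3 was here the second highest. Per1, which also responds to stress and hormone signals, was at 145 CPM in library 1 and at 60.2, 49 and 52.8 CPM in the other 3. Its spread over libraries was smaller than that of Per2.

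The Rev-erb genes encode the nuclear receptors that repress Arntl. Nr1d2 was at 126 CPM (122 to 131) in library 1 and at 38.6, 39.9 and 30.5 CPM in libraries 2, 3 and 4. Nr1d1 was at 73.7 CPM (70.2 to 77.3) in library 1, 42.3 CPM (40.2 to 44.5) in library 2, 35.9 CPM (34 to 38) in library 3 and 26.8 CPM (23.4 to 30.6) in library 4. Library 1 was thus less far from the rest for Nr1d1 than for Nr1d2. Ciart was low throughout, at 12 CPM (10.6 to 13.5) in library 1 and at 5.66, 5.41 and 3.13 CPM in the others.

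Arntl, the activator, was lowest in library 1, where the other genes were highest. Its order over the other libraries was not the reverse of theirs, since library 3 held the highest Arntl and also the second highest Dbp and Per3. It stood at 2.53 CPM (1.92 to 3.28) in library 1, 17 CPM (15.7 to 18.4) in library 2, 29.7 CPM (27.9 to 31.6) in library 3 and 9.98 CPM (7.95 to 12.4) in library 4. The 4 intervals were separate. The libraries with the lowest and the highest Arntl, 1 and 3, were those with the highest and the lowest Per2.

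The comparison fixed for all members was the library with the highest Dbp in endothelial-like cells against the one with the lowest, which were libraries 1 and 4. Dbp was 22.2-fold higher in library 1 (95% binomial interval 18.6 to 26.7), Per3 9-fold (7 to 11.7), Per2 7.16-fold (5.52 to 9.45) and Tef 6.48-fold (5.55 to 7.6). With each cell thinned to 1000 UMIs the log2 ratio of Dbp went from 4.47 to 5.54 (4.31 to 7.17), with 5 cells of library 4 left with a UMI. Nr1d2 was 4.14-fold higher (3.64 to 4.72), Nr1d1 2.75-fold (2.39 to 3.18) and Per1 2.74-fold (2.48 to 3.03). Of the 9 genes, 7 had a mean of at least 10 CPM over both libraries, and all 7 were at least 2-fold higher in library 1, where 12.7% of 8135 genes were at least 2-fold higher and 8.57% at least 2-fold lower. Nothing is read from this count, since the pair was picked by Dbp and since Per2 and Per3 reached the 10 CPM through library 1 alone. In the comparisons that follow, too, genes could pass through the library in which they were high. These 2 libraries differed widely, since their endothelial-like cells lay in separate clusters. That of library 4 (638 of its 643 cells) was led by Ubd, Gbp2b, Tpm3-rs7 and Cxcl9 and met 4 of 8 endothelial markers. The cluster shared by libraries 1 and 3 met 8 of 8. Endothelial markers summed to 7193 CPM in library 1 and 4286 CPM in library 4. The part of this difference in the clock values was not tested. The median log2 ratio was 2.05 over the 9 genes and 0.12 over all genes. Ciart and Arntl did not reach the 10 CPM and stood at a log2 ratio of 1.94 (1.36 to 2.58) and -1.98 (-2.49 to -1.48).

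Libraries 1 and 3, whose endothelial-like cells shared a cluster, differed far less over all genes. There 1.34% of 8223 genes were at least 2-fold higher and 2.1% at least 2-fold lower in library 1. Of the 9 genes, 8 passed the filter, of which 7 were at least 2-fold higher and Arntl was at least 2-fold lower. Per2 was 14.1-fold higher (11.7 to 17.1), Dbp 11.7-fold (10.9 to 12.5), Tef 5.94-fold (5.49 to 6.44) and Per3 4.47-fold (4.05 to 4.94). Arntl was 11.8-fold lower (9 to 15.6). For ranks, folds were taken after 1 CPM was added to both levels, unlike the folds just given. By this fold among the 8223 genes, Dbp ranked 3rd, Per2 4th, Tef 5th and Per3 11th from the top. Arntl ranked 13th from the bottom. Nr1d2 ranked 31st, Per1 40th and Nr1d1 105th from the top, and Ciart was below the filter. The genes were chosen for such differences, so these ranks describe them and support nothing. Within the shared cluster alone the log2 ratio was 3.52 for Dbp (3.42 to 3.62) and -3.56 for Arntl (-3.97 to -3.17).

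Against library 2, 6 of the 7 genes that passed the filter were at least 2-fold higher in library 1, where 7.91% of 8145 genes were higher and 6.1% lower. The exception was Nr1d1, with a log2 ratio of 0.80 (0.70 to 0.90). Dbp ranked 4th from the top in that comparison, again with 1 CPM added.

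The 9 genes were followed through the other classes of resident cells. Fibroblast-like cells, which make the matrix of the heart, held Dbp at 380 CPM (372 to 387, 2171 cells) in library 1, 30.3 CPM (28.6 to 32.1, 1998 cells) in library 3 and 19.2 CPM (17.1 to 21.6, 560 cells) in library 4. The other output genes were again highest in library 1. Arntl was at 4.61 CPM (3.85 to 5.48), 63.9 CPM (61.4 to 66.5) and 11.7 CPM (10 to 13.6) in libraries 1, 3 and 4. Its level in library 3 was the highest of any class and library. Nr1d1 was at 133, 32.6 and 17 CPM, so that in fibroblast-like cells its fold between libraries 1 and 3, 4.08 (3.82 to 4.35), was larger than the 2.05 (1.9 to 2.21) of endothelial-like cells.

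In fibroblast-like cells 7 of the 8 genes that passed were at least 2-fold higher in library 1 than in library 3 and Arntl was lower, with 3.54% and 2.74% of 8576 genes called in these directions. Against library 4, all 7 genes that passed were at least 2-fold higher, where 15% of 8451 genes were higher and 9.75% lower. Of the 560 fibroblast-like cells of library 4, 556 lay in a cluster of their own, led by Timp1 and Cxcl14. The median log2 ratio there was 2.41 over the 9 genes and 0.16 over all genes. Fibroblast-like cells of libraries 1 and 3 lay in 2 clusters in different proportions (1786 and 382 cells of library 1, 460 and 1535 of library 3). Within the first cluster the log2 ratio of library 1 to library 3 was 3.45 for Dbp (3.26 to 3.64) and -4.04 for Arntl (-4.45 to -3.65), and within the second 3.05 (2.93 to 3.16) and -2.94 (-3.33 to -2.58).

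Mural cells wrap the vessels, and 2 classes of them were present. Pericyte-like cells, named for the mural cells of capillaries, held Dbp at 392 CPM (375 to 410, 562 cells) in library 1, 26.8 CPM (22.9 to 31.2, 587 cells) in library 2 and 40.1 CPM (35.5 to 45.1, 572 cells) in library 3. Their Per2 was at 55.7, 22.2 and 2.65 CPM and their Arntl at 1.55, 11.8 and 26.7 CPM, in the same orders as in endothelial-like cells. Nr1d1 was at 106, 77.8 and 71.6 CPM, in the same order as in endothelial-like cells. Endothelial markers summed to 3554, 3958 and 4115 CPM in the pericyte-like cells of libraries 1 to 3, against 7193, 7955 and 7902 CPM in endothelial-like cells. The part of endothelial transcripts in these orders was not tested. In library 1, 6 of 8 genes were at least 2-fold higher than in library 3, Arntl was lower and Nr1d1 was neither. In the same directions, 1.12% of 8765 genes were higher and 1.83% lower. Among the 9 genes Per2 had the largest fold, 21 (13.1 to 35.9), on 18 UMIs in library 3.

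Smooth muscle-like cells held Dbp at 250 CPM (230 to 271, 279 cells) in library 1, 22.2 CPM (17.4 to 27.8, 259 cells) in library 2 and 44 CPM (36.7 to 52.3, 218 cells) in library 3. Here Nr1d1 was not highest in library 1. It stood at 35.5 CPM (28.3 to 44), 39.2 CPM (32.8 to 46.5) and 48.8 CPM (41.1 to 57.5) in libraries 1, 2 and 3, and these intervals overlapped. The log2 ratio of library 1 to library 3 was -0.46 (-0.86 to -0.06), and it turned to 0.24 (-0.89 to 1.43) with thinning to 1000 UMIs. Between libraries 1 and 3, 6 of 7 genes were at least 2-fold higher in library 1, with 2.63% of 8478 genes higher and 2.96% lower. Cardiomyocyte-like cells, the beating muscle cells, were named in at least 100 cells only in library 1 (328 cells). They held Dbp at 164 CPM (142 to 189), Tef at 94.5 CPM and Arntl at 1.64 CPM (0.199 to 5.94, 2 UMIs).

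**Figure D2:**
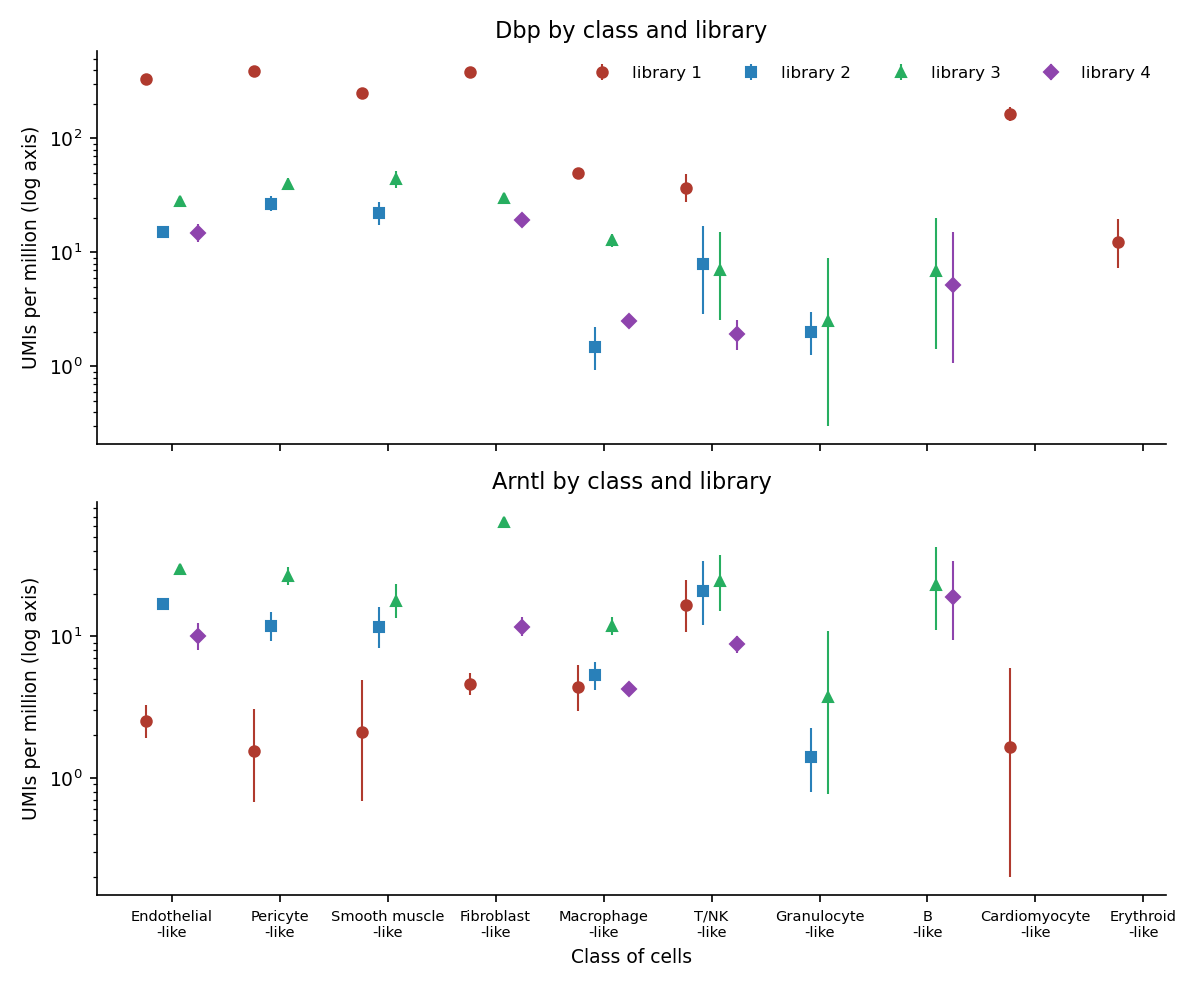
Levels of Dbp (top) and Arntl (bottom) in CPM on log axes, by class of cells, with 1 point per library and exact Poisson 95% intervals. Dbp is highest in library 1 in each of the 6 classes that library 1 shares with another library, Arntl is highest in library 3 in each of the 8 classes shown there, and erythroid-like cells, with 0 UMIs of Arntl, have no point for it.

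In each library the highest level of Dbp, Tef, Per3, Nr1d1 and Nr1d2 was found in a class of resident cells, whereas that of the other 4 genes was found in a class of blood or immune cells in at least 1 library. Macrophage-like cells held Dbp at 49.4 CPM (44.3 to 55, 557 cells) in library 1, 1.48 CPM (0.926 to 2.24, 1003 cells) in library 2, 12.8 CPM (11.1 to 14.6, 1170 cells) in library 3 and 2.49 CPM (2.17 to 2.83, 5864 cells) in library 4. Library 1 was again the highest, and libraries 2 and 4 were the lowest. Most macrophage-like cells of library 2, 858, lay in a cluster led by Arg1 and Ccl24, whereas most of those of libraries 1 and 3 lay in a cluster led by Fcrls and Ms4a7. Within library 1 alone, the endothelial-like level of Dbp was 6.68-fold the macrophage-like level (4.48-fold with each cell thinned to 1000 UMIs), with both classes from the same preparation. Nr1d1 in macrophage-like cells was at 21.2, 3.9, 17.2 and 0.97 CPM in libraries 1 to 4, so that libraries 1 and 3 lay close together and far above library 4.

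Per1 and Ciart ran apart from Dbp in macrophage-like cells. Ciart was highest in library 3, at 7.34 CPM, and stood at 6.5 CPM in library 4. Its log2(CPM + 5), with the mean of the class removed, was 0.06, -0.18, 0.11 and 0.01 in libraries 1 to 4. No order of libraries 1, 3 and 4 is read from these values. Per1 stood at 106 CPM (98.7 to 114) in library 1, 41.1 CPM (37.9 to 44.4) in library 2, 55.1 CPM (51.5 to 58.8) in library 3 and 95.6 CPM (93.6 to 97.6) in library 4. Libraries 1 and 4 differed by 1.11-fold (1.03 to 1.2) for Per1 and by 19.9-fold (16.7 to 23.7) for Dbp, whose log2 ratio went from 4.31 to 5.20 with thinning to 1000 UMIs. Macrophage-like cells of library 4 formed clusters of their own, the larger led by Ms4a4c, Ly6i, Ly6c2 and Plac8. Of the 5 genes that passed the filter, 4 were at least 2-fold higher in library 1 than in library 4, with 9.85% of 7404 genes higher and 6.87% lower. Against library 3, 2 of 5 were higher, with 1.37% of 7590 genes higher and 0.58% lower. In the cluster that held most macrophage-like cells of libraries 1 and 3 (424 and 1058 cells), the log2 ratio was 2.12 for Dbp (1.86 to 2.39), 2.80 for Per2 (2.06 to 3.60) and -1.41 for Arntl (-2.10 to -0.78).

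T/NK-like cells, which formed 1 cluster over all libraries, held Dbp at 37 CPM (27.7 to 48.4, 176 cells) in library 1, 7.89 CPM (2.89 to 17.2, 166 cells) in library 2, 6.97 CPM (2.56 to 15.2, 122 cells) in library 3 and 1.91 CPM (1.38 to 2.57, 1407 cells) in library 4. The interval of library 1 lay above the other 3. Arntl was at 16.7, 21, 24.4 and 8.75 CPM, and the intervals of libraries 1 to 3 overlapped. Library 4, and not library 1, was thus the lowest here, unlike in endothelial-like and fibroblast-like cells. Of the 4 genes that passed the filter between libraries 1 and 4, 2 were at least 2-fold higher in library 1, with 8.58% of 7731 genes higher and 6.65% lower.

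Granulocyte-like cells, named in at least 100 cells only in libraries 2 (2735 cells) and 3 (256 cells), had little Dbp, 2 CPM (1.27 to 3) and 2.48 CPM (0.301 to 8.97), but held Per2 at 41.3 CPM (37.6 to 45.1) and 26.1 CPM (16.1 to 39.9). Their Per2 in library 2 was above that of endothelial-like cells of that library, 16.1 CPM, while their Arntl was at 1.39 CPM (0.796 to 2.26) against 17 CPM. Ciart was at 21 CPM (18.4 to 23.8) in library 2 and 3.73 CPM (0.768 to 10.9) in library 3. It was concentrated in 1 of 2 granulocyte-like clusters, where the 693 cells of library 2 held 98.3 CPM and the 252 cells of library 3 held 3.8 CPM. B-like cells (107 cells of library 3 and 130 of library 4) had 3 UMIs of Dbp in each library, too few for an order. Erythroid-like cells of library 1 (201 cells) held Dbp at 12.5 CPM (7.38 to 19.7) and no UMI of Arntl or Ciart, which allows up to 3 UMIs, or 2.08 CPM. Erythroid markers summed to 918708 CPM in these cells, so the CPM of any other gene is low there.

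**Figure D3:**
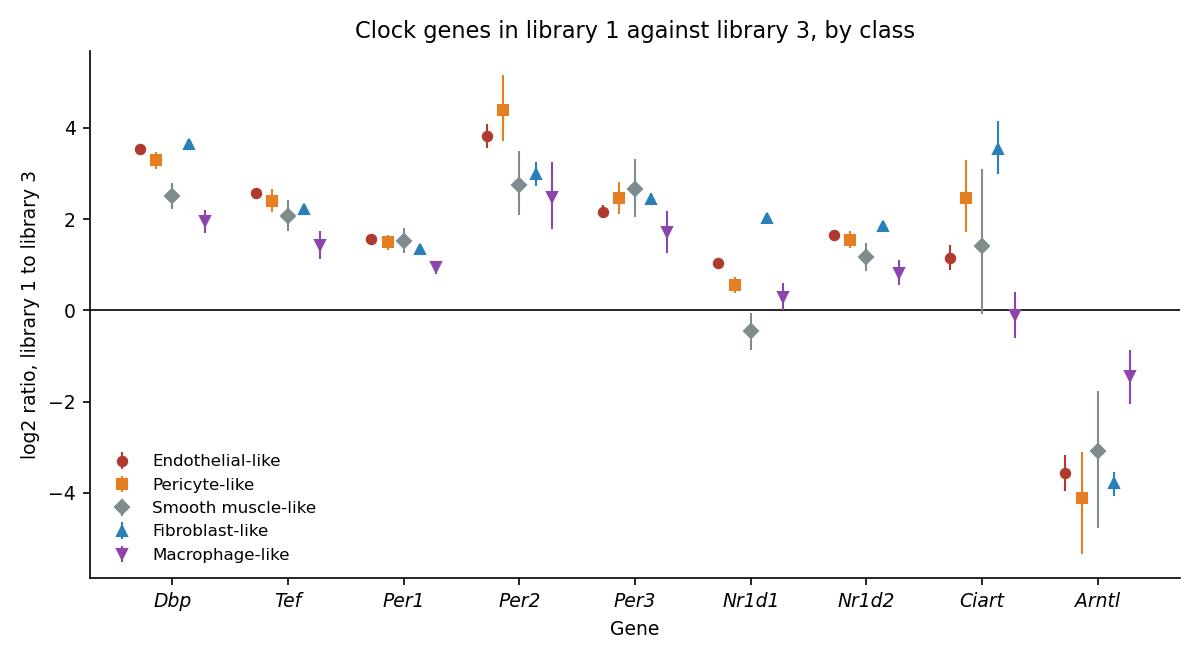
The log2 ratio of library 1 to library 3 for each clock gene in 5 classes, with exact binomial 95% intervals that cover counting error only. Dbp, Tef, the period genes and Nr1d2 lie above 0 in all 5 classes, Arntl lies below 0 in all 5, and Nr1d1 ranges from -0.46 in smooth muscle-like to 2.03 in fibroblast-like cells.

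The order of libraries recurred over classes for some genes and not for others. Library 1 shared 6 classes with at least 1 other library, and it was the highest in all 6 for Dbp, Per2, Per3 and Nr1d2, in 5 for Tef and Per1, and in 4 for Nr1d1 and Ciart. Its interval overlapped that of another library for Per2 in macrophage-like and T/NK-like cells, for Per3 and Nr1d2 in T/NK-like cells, for Nr1d1 in macrophage-like cells and for Ciart in smooth muscle-like cells. Over all genes with a mean of at least 10 CPM in these classes, 2.26% of 9090 were the highest in library 1 in all 6. Library 3 was the highest for Arntl in all 8 classes that it shared, as were 1.14% of 9042 genes, and it was the lowest for Per2 in 6 of the 8. For Arntl its interval overlapped that of another library in smooth muscle-like, T/NK-like, B-like and granulocyte-like cells. Library 4 was the lowest for Per3, Nr1d1 and Nr1d2 in all 5 of its classes, but not always by separate intervals. For Per3 in endothelial-like cells, for example, its interval overlapped that of library 2. In B-like cells its Per3 and Nr1d1 were at 1.72 CPM, or 1 UMI each, too few for an order. Ciart had too few UMIs to enter the counts over all genes.

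The share of endothelial-like cells with at least 1 UMI of Dbp or Arntl followed the levels, apart from Dbp in libraries 2 and 4 before thinning. In endothelial-like cells 72.6% (exact 95% interval 71.1 to 74) of library 1 had a UMI of Dbp, against 9.21%, 17.6% and 12.9% in libraries 2, 3 and 4. The median depth ran the other way, from 4723 UMIs per cell in library 1 to 9558 in library 4. With each cell thinned to 1000 UMIs the shares were 29.5% (28 to 31), 1.44% (1.11 to 1.85), 2.75% (2.22 to 3.37) and 0.785% (0.255 to 1.82). For Arntl the unthinned shares were 1.5%, 11.7%, 24.6% and 10.5%, and the thinned ones 0.338% (0.175 to 0.59), 1.89% (1.5 to 2.35), 2.99% (2.44 to 3.64) and 1.1% (0.443 to 2.25). In erythroid-like cells of library 1, a class with little messenger RNA besides globin, 7.46% (4.24 to 12) had a UMI of Dbp at a median depth of 7143 UMIs, and 0.51% (0.0129 to 2.81) after thinning. The erythroid markers summed to 918708 CPM in that class, which leaves few UMIs for any other gene. No comparison of its shares with those of endothelial-like cells is therefore drawn.

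**Figure D4:**
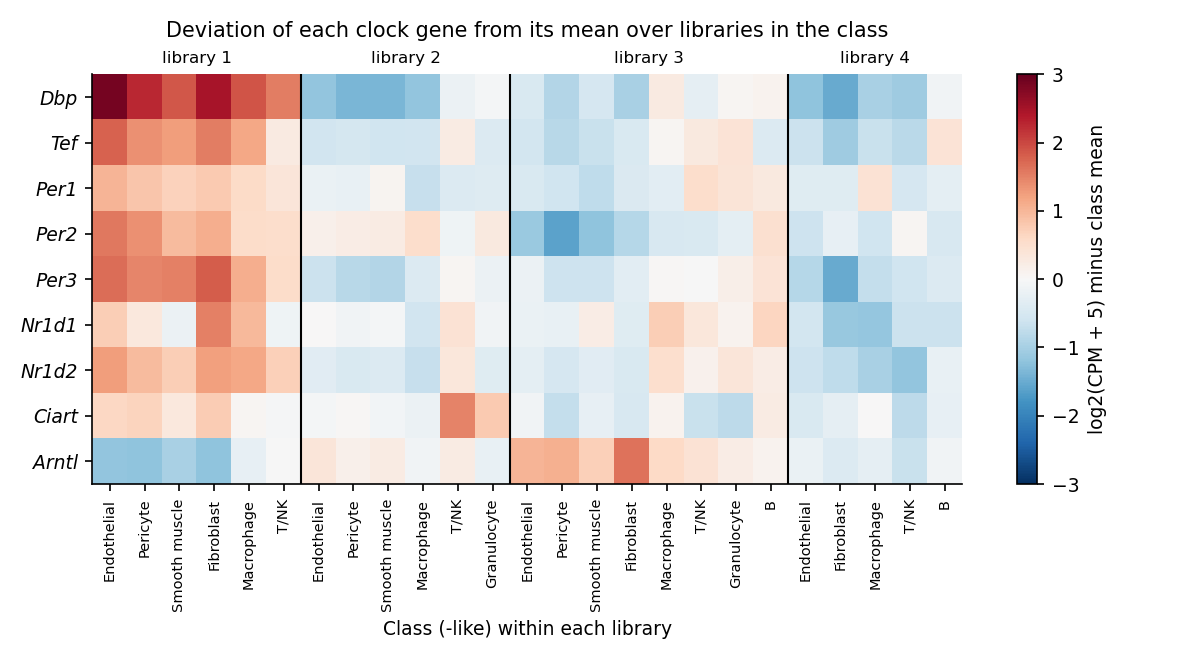
Each column is a class within a library and each row a clock gene, and colour gives log2(CPM + 5) minus the mean of the class over its libraries, from -3 to 3. Dbp is above 0 in all 6 columns of library 1, from 1.53 to 2.86, and Arntl is above 0 in all 8 columns of library 3.

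Across the 25 combinations of 8 classes and 4 libraries, and after the mean of each class was removed, the genes most like Dbp were ranked among 6715 genes by Pearson r on log2(CPM + 5), with a mean of at least 20 CPM. These combinations share libraries, so r is a description and carries no p. Of the 9 genes, 2 were among the 10 most alike: Tef with an r of 0.94 in place 2 and Nr1d2 with 0.93 in place 3. Per1 stood in place 68 with an r of 0.78 and Nr1d1 in place 296 with 0.67. The first was Gm26802, a long intergenic noncoding RNA on the minus strand of chromosome 7 (19298260 to 19300770, GENCODE M21), with an r of 0.95, and the 10 also held Ankrd12, Tcap, Btg2, Junb, Herpud1 and Atf3. Junb and Atf3, in places 8 and 10, are immediate early genes. Others of that kind, Egr1, Fosb, Fos and Jun, stood in places 12, 20, 26 and 29, above Per1 and Nr1d1. Ier2, Nr4a1 and Dusp1 stood in places 77, 102 and 590. The 10 genes with the lowest r were Gng5, Timp1, Stx11, Nipsnap3b, Ufm1, Rab11a, Carhsp1, Lsm12, Cmpk1 and Hif1a, with r from -0.85 to -0.79. Of members below the 20 CPM limit, Per3 had an r of 0.96, Per2 0.68, Ciart 0.51 and Arntl -0.59. Arntl went most strongly against Per2, with an r of -0.81.

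With library 1 left out, 19 combinations remained and none of the 10 genes was among the 10 most like Dbp. Of the immediate early genes, only Atf3, Egr1, Junb and Fos were looked at here. They kept a positive r with Dbp, at 0.84, 0.79, 0.70 and 0.58, as did Tef at 0.53. Dbp then had an r of 0.77 with Arntl, 0.78 with Nr1d2, 0.75 with Per3 and Nr1d1, -0.60 with Per2 and -0.10 with Per1. In endothelial-like cells of libraries 2 to 4, for example, Dbp and Arntl were both highest in library 3, where Per2 was lowest.

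The wider clock genes were read from lists divided by arm. Of 6 genes placed in the arm of Dbp, Hlf, the third PAR bZIP factor, stood out with 51.3 CPM in library 1 and 2.29, 3.23 and 0.721 CPM in libraries 2 to 4 in endothelial-like cells. Cry2, a cryptochrome that inhibits CLOCK-ARNTL, was at 41.6 CPM and at 11.5, 12.1 and 8.05 CPM. Between libraries 1 and 3 in that class, 4 of the 6 passed the filter. Of these 2, Hlf and Cry2, were at least 2-fold higher, where 1.34% of all genes were. The median log2 ratio of the 6 was 1.39. Bhlhe41, a repressor of E-box genes, was at 12.3 CPM against 0.481 to 1.46 CPM. Usp2, which encodes a deubiquitinase, was flat in endothelial-like cells, at 3.85 to 5.52 CPM, but in pericyte-like cells stood at 94.3, 47.7 and 34.9 CPM in libraries 1, 2 and 3. Tspan4, a tetraspanin gene, was at 213, 146, 106 and 209 CPM in libraries 1 to 4, and Wee1, which encodes a mitotic kinase, was at 25.8 CPM against 13.4 to 16.7 CPM.

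The list placed with Arntl held Npas2, Clock, Cry1 and Nfil3. In endothelial-like cells 3 of the 4 passed the filter between libraries 1 and 3, and none was at least 2-fold higher in library 1. Nfil3, a repressor that competes at D-boxes, was at least 2-fold lower, at 11.1 against 27.6 CPM, where 2.1% of all genes were. Clock, the partner of ARNTL, was at 57.6, 69.6, 86.2 and 49.5 CPM in libraries 1 to 4. Cry1 was at 30.4, 39.9, 19.4 and 18.8 CPM and did not follow Arntl. Npas2, a paralog of Clock, was below 0.4 CPM in endothelial-like cells of every library but reached 12 CPM in fibroblast-like cells of library 3, against 1.42 and 0.89 CPM in libraries 1 and 4. The median log2 ratio of the 4 genes between libraries 1 and 3 was -0.84. Of 10 receptors and regulators without a fixed arm, 6 passed and none was called in either direction, with a median of 0.08.

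**Figure D5:**
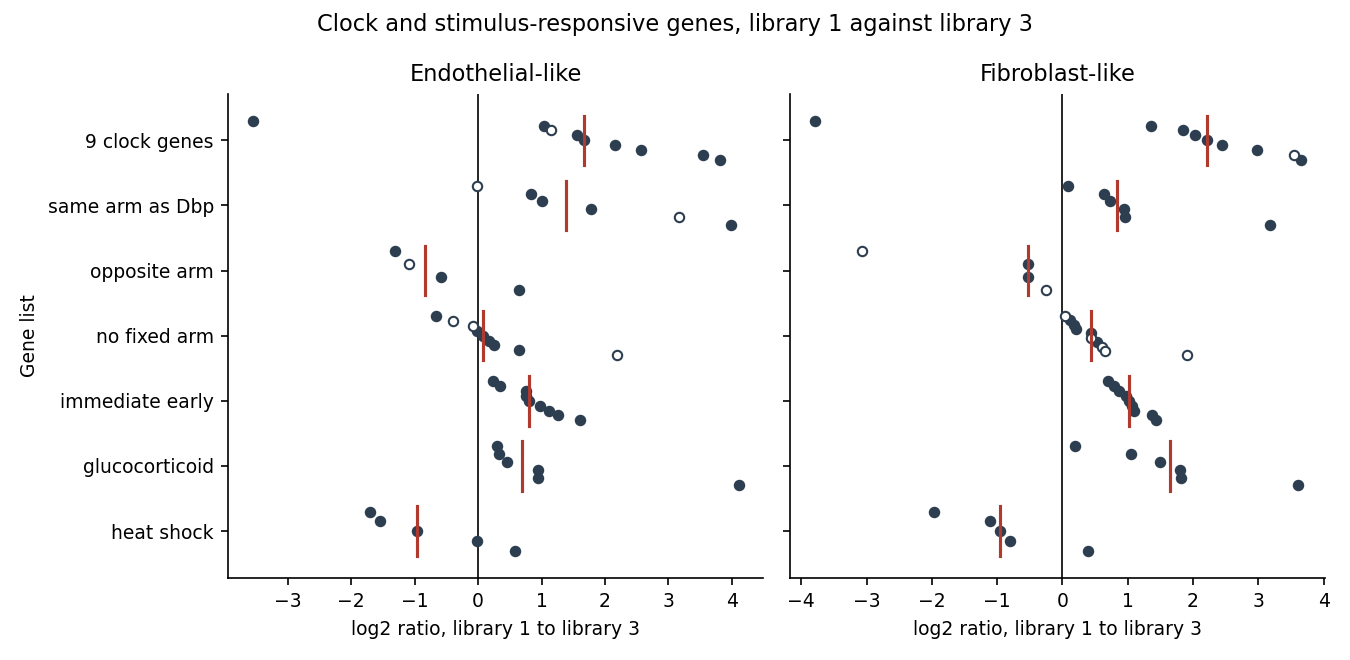
The log2 ratio of library 1 to library 3 for each gene of 7 lists, in endothelial-like (left) and fibroblast-like (right) cells, with filled points for genes with a mean of at least 10 CPM, open points for the rest and red lines for the median of the list. In endothelial-like cells the medians are 1.66 for the 9 clock genes, 0.80 for immediate early genes and -0.97 for heat shock genes.

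Because Per1 and Per2 also answer to stimulation, 3 lists of stimulus-responsive genes were set beside them. Immediate early genes are switched on within minutes of a stimulus, dissociation of tissue included. Their summed level in endothelial-like cells was 23149, 10844, 11974 and 7378 CPM in libraries 1 to 4. Egr1, for example, was at 4110 CPM in library 1 and at 944, 1356 and 629 CPM in the others, and Fos was at 3700 CPM against 1235 to 1701 CPM. Between libraries 1 and 3, all 9 had a log2 ratio above 0, with a median of 0.80. Of these, 3 (Egr1, Fosb and Fos) were at least 2-fold higher, where 1.34% of all genes were. Between libraries 1 and 4, 8 of 9 were at least 2-fold higher, where 12.7% of all genes were. The part of this difference in the levels of Per1 and Per2 was not tested.

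Of 6 glucocorticoid-responsive genes in endothelial-like cells, 1 was at least 2-fold higher in library 1 than in library 3, where 1.34% of all genes were. This was Zbtb16, at 68.7 against 3.98 CPM, and the median log2 ratio of the 6 was 0.70. In libraries 2 and 4 Zbtb16 was at 74.8 and 18.5 CPM. Fkbp5, a co-chaperone of the glucocorticoid receptor, was instead highest in library 2, at 186 CPM against 24.3, 19.8 and 74.2 CPM in libraries 1, 3 and 4, and Klf9 was at 499 CPM in library 1 and 111 to 260 CPM elsewhere. In fibroblast-like cells 5 of the 6 were at least 2-fold higher in library 1 than in library 3, where 3.54% of all genes were. Of 5 heat shock genes, none was at least 2-fold higher in library 1 than in library 3 in endothelial-like cells. At least 2-fold lower were 2, Hspa1b and Hsph1, where 2.1% of all genes were.

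Transcripts of other cells also differed between libraries within the classes, and their part in the clock values was not tested. In endothelial-like cells the 5 erythroid markers summed to 11960 CPM in library 1 and 3079 to 6555 CPM in the others, and the 6 granulocyte markers to 3437 CPM in library 2 and 26.3 to 91.5 CPM elsewhere. In fibroblast-like cells the erythroid sum was 1194 CPM in library 1 against 43.6 and 18.9 CPM in libraries 3 and 4. In macrophage-like cells it was 2700 CPM in library 1 against 45.5 to 153 CPM in the others, and in T/NK-like cells 4646 against 81.4 to 275 CPM. In pericyte-like cells it was 10240 CPM in library 1 against 4525 and 4851 CPM, and in smooth muscle-like cells 361 against 94.3 and 51.6 CPM. The granulocyte sum was highest in library 2 in each of these classes that library 2 held, at 4871 CPM in macrophage-like cells. Dbp shares 737 bases at its end with Sphk2, Nr1d1 shares 1075 bases with Thra, and Tef, Ciart and Arntl overlap antisense genes, each on the other strand, which the 3′ kit keeps apart. Per3 lies within Camta1 on the same strand, so reads could be divided between these 2 genes.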

How the data were processed

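Cells of 2 allogeneic and 2 syngeneic heart grafts taken on day 5 were measured by 10x Genomics 3′ v3 single-cell RNA sequencing. The authors made UMI counts per gene and cell with Cell Ranger 3.0.0 (mm10, Ensembl 92) and deposited them as 1 merged matrix without normalization. The 9 genes and all gene lists were chosen with earlier results of these data known.

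Following the study's limits, cells with more than 200 genes and a mitochondrial share below 20% were retained (44626), the top 5% by simulated doublet score per library were removed (42395 left), and mitochondrial genes were dropped. Counts scaled to 10000 per cell over 2000 variable genes, the reported genes excluded, gave 10 principal components for Leiden clustering (leidenalg 0.10.2, resolution 0.8). A class name needed 3 of its fixed markers at 2-fold. A cluster with enough markers still stayed unnamed where another class led its top genes, or where it was shallow and none of its markers led. The shallow cluster led by Acta1 thus had no name with 7 of 7 cardiomyocyte markers. The same held for the cluster led by Trim30c, with 5 of 6 granulocyte markers. In all, 8801 cells stayed unnamed.

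Shares have exact Clopper-Pearson intervals and ratios exact binomial intervals. A gene was called at 2-fold with 1 CPM added and a mean of at least 10 CPM over both libraries. A count of 0 allows up to 3 UMIs. Genes named were the 9 members, the wider clock and stimulus lists, and the 10 genes with the highest and lowest r with Dbp, of which 1 is not reported here. Clusters of endothelial-like, fibroblast-like, macrophage-like and unnamed cells are described by their leading genes, chosen after the values were seen. Motifs were searched in RefSeq promoters. Python 3.11.15 and scipy 1.17.1 were used, and the steps were tested on simulated data. Alternatives were 2 other resolutions, 20 principal components, doublets kept, at least 500 genes, means over cells, thinning to 1000 UMIs, another scaling, a marker gate, other filters, and each library left out. The comparison of libraries 1 and 3 and the likeness without library 1 were added after seeing the data.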

Additional observations from a re-analysis of the deposited data

Results flagged for a closer look

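Cells that the filters left out, 3306, 1411, 4142 and 2570 in libraries 1 to 4, enter no comparison of the report, and they hold clock transcripts above the limit that a count of 0 allows (at most 0.262 CPM in any library). Their Dbp was at 270 CPM (exact Poisson 95% interval 261 to 280) in library 1, 13 CPM (11 to 15.3) in library 2, 27.5 CPM (25.1 to 30) in library 3 and 4.07 CPM (3.09 to 5.26) in library 4. Their Arntl was at 4.62 CPM (3.46 to 6.04), 14.2 CPM (12.2 to 16.6), 42.4 CPM (39.4 to 45.5) and 7.93 CPM (6.53 to 9.53). Library 1 was the highest for Dbp and the lowest for Arntl in these cells too, and library 3 the highest for Arntl. The mix of cell classes among them was not tested.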

How the results depend on the processing

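Of 574 values of a log2 ratio between libraries recomputed under an alternative, 567 kept the direction of the reported value, 501 lay within its counting interval and 72 moved out of it, and 1 with an interval off 0 changed sign. All 180 such values in endothelial-like cells kept their direction. Between libraries 1 and 4 there, the mean over cells gave 1.70 for Nr1d1, and thinning to 1000 UMIs gave 5.54 for Dbp, 3.07 for Tef, 2.35 for Per2, 2.46 for Nr1d2 and 2.98 for Ciart. Between libraries 1 and 3, Dbp was at 3.44 with a resolution of 1.6, 3.44 with 20 principal components, 3.40 with doublets kept, 3.65 with thinning and 3.43 to 3.44 over the fits that left out a library. With doublets kept, Tef was at 2.41 and Nr1d2 at 1.55. Per2 was at 4.18 by the mean over cells and 4.20 with thinning, where Tef was at 2.43, Per3 at 1.93, Nr1d1 at 1.19, Nr1d2 at 1.55 and Arntl at -3.06. The value that changed sign was that of Nr1d1 between libraries 1 and 3 in smooth muscle-like cells, which was under 2-fold and became 0.24 with thinning. Between endothelial-like and macrophage-like cells of library 3, Per1 changed sign to 0.0693 with thinning. The cause of these changes of sign was not tested. With a mean of at least 50 CPM, 6 of the 10 genes most like Dbp remained, and with library 1 left out, 0. At a resolution of 0.4 and at a minimum of 500 genes, too few endothelial-like cells of library 4 were named, and no value was had. No paired analysis was possible because no source used here pairs a suffix with a sample.

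With 1 graft per library, no interval covers the spread between grafts. Counts under about 10 UMIs, as for Dbp in B-like cells, allow no order of libraries.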

Other observations

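In 2 clusters that carried no class name, Dbp was also higher in library 1 than in the other libraries with at least 100 of their cells. The cluster led by Ccl21a, Mmrn1 and Prox1, genes known from lymphatic endothelium, held Dbp at 215 CPM (200 to 232, 1055 cells) in library 1 and 35.7 CPM (29.6 to 42.6, 743 cells) in library 3, with Arntl at 3.33 CPM (1.66 to 5.96) and 20.3 CPM (15.8 to 25.7). In the cluster led by Acta1, Ankrd1 and Nppa, which are genes of stressed heart muscle, Dbp was at 168 CPM (133 to 209, 416 cells) in library 1 and rested on 4 UMIs or fewer in each of the other libraries.

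The highest Per1 of any cluster and library described here was found in the cluster led by Trim30c, Slfn4 and Asprv1, made up of 777 cells of library 4, at 224 CPM (206 to 244). Dbp there was at 3.42 CPM (1.48 to 6.74) and Per2 at 3.42 CPM.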
